A study of Mus musculus with 4 samples.

Results

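The receptors described here are 10 mouse genes through which immune cells sense antibody-coated particles and microbial or damage-derived molecules: Fcgr1, Fcgr2b, Fcgr3, Fcgr4, Fcer1g, Tlr2, Tlr4, Tlr7, Tlr13 and Cd14. They were chosen by symbol, and all 10 were found among the 31053 genes of the deposited count tables. The tables hold single-cell RNA profiles of leukocytes from C57/BL6 mice after transient middle cerebral artery occlusion (tMCAO), a model of stroke by temporary closure of a cerebral artery. All groups shared this strain, this operation and a sort by flow cytometry for high CD45, a surface protein of leukocytes. The groups were the ischemic hemisphere 5 days and 14 days after tMCAO, with 2 libraries each (replicates 1 and 2), and no uninjured group was analysed here. The labels do not give the age of the mice or how many mice a library holds, so p-values measure only the spread between libraries, which may be technical.

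Fc gamma receptors bind the constant part of immunoglobulin G. Fcgr1, Fcgr3 and Fcgr4 encode activating receptors that signal through the shared gamma chain encoded by Fcer1g, whereas Fcgr2b encodes the inhibitory receptor that dampens them. Toll-like receptors recognise conserved molecules: Tlr2 and Tlr4 act at the cell surface, Tlr4 with the help of the lipopolysaccharide-binding co-receptor Cd14, and Tlr7 and Tlr13 act in endosomes on single-stranded and bacterial ribosomal RNA. In the injured brain these receptors are carried by resident microglia and by the phagocytes that enter from blood.

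The promoters of 3 Fc receptor genes are shown because Fcgr1 and Fcgr4 changed between the days in several classes, as described further on, while their signalling partner Fcer1g is the reference. RefSeq start sites of build GRCm38.p6 were available for 7 of the 10 genes and not for Tlr4, Cd14 and Tlr7. The stretches are read 5′ to 3′ on the strand of the gene and end at the start site, or at the first base that the gene annotation counts as untranslated region. Fcgr1 lies on chromosome 3 (minus strand, chr3:96293970-96294169 shown), and Fcgr4 (plus strand, chr1:171018726-171018919 shown) and Fcer1g (minus strand, chr1:171234366-171234549 shown) lie on chromosome 1. Capitals mark matches, on either strand, to GAGGAA (the core bound by PU.1, a transcription factor of myeloid cells), TTCNNNGAA (the core bound by STAT factors) or the core bound by interferon regulatory factors (GAAA followed, 2 bases later, by GAAA).
Fcgr1: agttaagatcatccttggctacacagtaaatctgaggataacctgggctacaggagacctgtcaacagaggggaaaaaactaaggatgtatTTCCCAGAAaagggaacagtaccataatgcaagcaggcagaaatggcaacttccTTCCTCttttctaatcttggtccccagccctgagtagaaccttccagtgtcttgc
Fcgr4: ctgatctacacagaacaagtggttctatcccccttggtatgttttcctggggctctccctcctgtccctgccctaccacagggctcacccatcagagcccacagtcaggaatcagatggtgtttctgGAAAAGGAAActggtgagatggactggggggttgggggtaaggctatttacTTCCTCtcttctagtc
Fcer1g: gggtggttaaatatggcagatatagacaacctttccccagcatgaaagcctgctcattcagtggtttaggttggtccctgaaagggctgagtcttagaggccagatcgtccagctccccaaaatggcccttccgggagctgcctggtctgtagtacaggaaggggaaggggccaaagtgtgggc

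Over the 250 bases before each start site, Fcgr1 held 1 GAGGAA match at position -55 and 1 TTCNNNGAA match at -109, counted to the start site. Fcgr4 held 1 GAGGAA match at -22 and 1 interferon regulatory factor core at -73. Fcer1g held none of the 3, nor did Fcgr2b and Tlr2, while Fcgr3 and Tlr13 held GAGGAA alone. Of the 250 bases, 187 of Fcgr2b and 159 of Tlr2 are counted as untranslated region by the gene annotation, so these 2 stretches are largely transcribed sequence. For Tlr13 it was 46 bases, for Fcgr3 27 and for Fcer1g 16. Of 27025 promoters of the same length, 23.1% held GAGGAA, 7.18% TTCNNNGAA and 3.04% the interferon regulatory factor core. A match describes the letters only. Fcgr2b, Fcgr3, Fcgr4 and Fcer1g all lie within chromosome 1 between 170958617 and 171234365 (GRCm38), and none of the 90-base windows over the last 500 bases of the transcripts of any of the 10 genes occurred in a transcript of another gene.

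After filtering, 10196 of 10925 barcodes were used, 2428 and 3298 on day 5 and 2312 and 2158 on day 14. Total counts of unique molecular identifiers (UMIs, tags that mark single RNA molecules) were between 9288054 and 13610119 per library, and the median per barcode was between 2882 and 4230. Pairs of libraries shared 5 to 16 barcodes. The lowest count of a barcode was 500 and 505 on day 5 but 1180 and 1317 on day 14. The cells formed 22 clusters, built without the 10 receptor genes, and 17 of them were assigned to 10 classes by marker genes. Microglia (271, 703, 94 and 50 cells), monocytes or macrophages (561, 633, 327 and 638), neutrophils (204, 260, 90 and 73) and dendritic cells (421, 417, 309 and 509) are the larger myeloid classes, in the order day 5 replicates 1 and 2 and day 14 replicates 1 and 2. The class makeup changed between the days: cluster 15 (led by Ms4a7, Gpnmb and Apoe) held 69.2% and 64.0% of monocytes or macrophages on day 5, and cluster 11 (led by Cfb, Ly6i, Ly6c2 and Arg1) held 82.3% and 91.4% on day 14. Each level below is in counts per 1000000 (CPM): the UMIs of a gene in a class and library, scaled to a common total of all UMIs of that class and library. Counts of 3′ ends carry no term for transcript length. In data pooled over cells of a class, fewer cells with a transcript and less of it per cell cannot be told apart.

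The activating receptor genes were high in tissue and blood-derived phagocytes and low in lymphocytes. Fcgr3 was highest in microglia, where the 4 libraries held 1182 to 1373 CPM, and this range did not overlap with that of border-associated macrophages (567 to 845 CPM). Neutrophils (431 to 510 CPM) and monocytes or macrophages (433 to 507 CPM) held similar levels of Fcgr3 and their ranges overlapped. NK cells, which are known to use this receptor for antibody-dependent killing, held 84.1 to 153 CPM of Fcgr3 against 34.2 to 93.3 CPM in T cells, a class that should lack it.

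Fcgr1, the high-affinity receptor, had nearly the same mean in monocytes or macrophages (270.3 to 655 CPM) and in microglia (383 to 534 CPM). Border-associated macrophages held 219 to 432 CPM and neutrophils 102 to 266 CPM, so each of these 4 neighbours in the order overlapped with the next. Dendritic cells held 87.9 to 153 CPM, above plasmacytoid dendritic cells (33.3 to 69.2 CPM) with no overlap. The lymphocyte classes (T, B and NK cells and the class called gamma delta T or innate lymphoid) held at most 25.2 CPM in any library, which is the background against which the other levels stand.

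Fcgr4, a receptor for IgG2 subclasses, held 99.6 to 137 CPM in neutrophils, 86.5 to 131 CPM in monocytes or macrophages and 56.4 to 129 CPM in microglia, with overlapping ranges. No lymphocyte class held more than 13.1 CPM of Fcgr4 in any library. Fcer1g was carried more broadly than the receptors it serves: NK cells held 2487 to 3387 CPM, close to border-associated macrophages (2568 to 3658 CPM) and with no overlap with dendritic cells (1325 to 2281 CPM). Its UMIs outnumbered those of Fcgr1, Fcgr3 and Fcgr4 together 33.0, 19.9, 20.9 and 23.7 times in NK cells, but 2.11, 2.01, 1.84 and 1.86 times in microglia. B cells, T cells and the gamma delta T or innate lymphoid class still held 174 to 608 CPM of Fcer1g.

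Inhibitory Fcgr2b was highest in border-associated macrophages (398 to 544 CPM), above microglia (297 to 325 CPM) with no overlap, and B cells, in which it is the only Fc gamma receptor, held 37.9 to 98.5 CPM. Set against the activating genes, Fcgr2b UMIs numbered 0.176, 0.160, 0.188 and 0.166 per UMI of Fcgr1, Fcgr3 and Fcgr4 in microglia. The ratio was 0.297, 0.290, 0.294 and 0.2496 in monocytes or macrophages and 0.487, 0.378, 0.392 and 0.495 in border-associated macrophages. The days overlapped in these 3 classes and in neutrophils (0.160, 0.211, 0.200 and 0.201). In dendritic cells the ratio was lower on day 14 in both libraries (0.423, 0.402, 0.396 and 0.305), and the two-sided exact permutation test gave p = 0.333, the smallest that 2 libraries against 2 allow. Single clusters differed from their class. In cluster 4 of dendritic cells the ratio was higher on day 14 (0.474, 0.489, 0.673 and 0.634), and in cluster 5 the days overlapped. It was also higher in cluster 7 of neutrophils (0.125, 0.155, 0.200 and 0.201), and lower in cluster 14 of monocytes or macrophages (0.342, 0.268, 0.211 and 0.235).

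Among the surface Toll-like receptors, Tlr2, which senses bacterial lipoproteins, was highest in microglia (364 to 427 CPM) and next in monocytes or macrophages (247 to 327 CPM), with no overlap between them. Neutrophils held 94.95 to 289.6 CPM and border-associated macrophages 158 to 188 CPM. Tlr4 was sparse everywhere. Border-associated macrophages held 19.5 to 56.3 CPM and microglia 19.7 to 29.2 CPM, and their ranges overlapped. In dendritic cells no library exceeded 2.63 CPM of Tlr4, and the T cell and gamma delta T or innate lymphoid classes had no UMI of it in any library. Its co-receptor Cd14 held 618 to 1067 CPM in border-associated macrophages, 681 to 915 CPM in microglia, 553 to 818 CPM in monocytes or macrophages and 320.0 to 953 CPM in neutrophils, and each neighbour overlapped with the next. Dendritic cells held 48.2 to 155 CPM of Cd14, below all 4 of these classes.

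Of the endosomal receptors, Tlr7 was highest in plasmacytoid dendritic cells, the professional interferon producers that use it to sense viral RNA. They held 86.5 and 113 CPM on day 5 and 79.1 and 137 CPM on day 14. Border-associated macrophages (38.5 to 131 CPM) overlapped with them, and microglia held 50.6 to 71.7 CPM. B cells held 6.31 to 32.8 CPM of Tlr7 and conventional dendritic cells only 3.01 to 5.68 CPM. The day 5 libraries held 92168 and 158413 UMIs of B cells over all genes, too few to rank these classes by Tlr7. At an equal depth of 1000 UMIs per cell, 0% of B cells had a Tlr7 UMI in both day 5 libraries (45 and 56 cells). On day 14 the shares were 6.07% and 3.49% (214 and 86 cells). Tlr13, a mouse sensor of bacterial 23S ribosomal RNA, held 24.2 to 82.5 CPM in neutrophils, 31.2 to 55.1 CPM in microglia and 32.6 to 49.2 CPM in monocytes or macrophages, all overlapping. B cells had no Tlr13 UMI in any library, and no other lymphocyte class held more than 5.88 CPM of it.

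**Figure D1:**
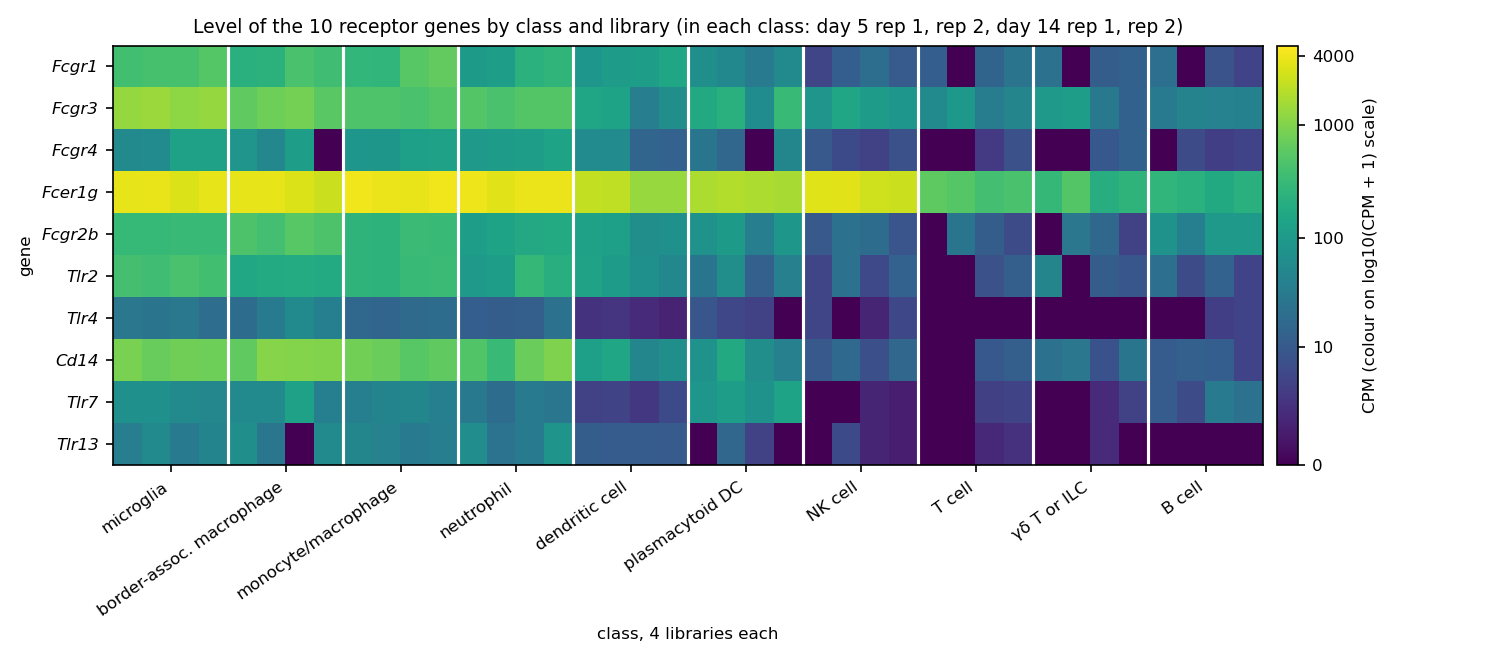
Heat map of the CPM of the 10 genes (rows) in 10 classes (column blocks, each with the 4 libraries), with colour on a log10(CPM + 1) scale. Fcer1g is bright in all myeloid classes and in NK cells, Fcgr3 is brightest in microglia among its classes, and Tlr7 is brightest in plasmacytoid dendritic cells.

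The cells that supplied these transcripts shifted between the days. Monocytes or macrophages held 39.0% and 25.0% of all Fcgr1 UMIs in cells used on day 5 and 53.4% and 70.4% on day 14, while the share of microglia went from 20.5% and 31.4% to 14.3% and 6.41%. For Fcer1g, NK cells held 1.85% and 1.30% of the UMIs on day 5 and 12.9% and 9.84% on day 14. For Tlr7 the share of microglia was 22.9%, 31.3%, 15.8% and 8.74% in library order and that of plasmacytoid dendritic cells 2.87%, 4.28%, 10.4% and 8.25%. Since these shares depend on how many cells of each class were captured, they describe the libraries and not levels per cell.

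**Figure D2:**
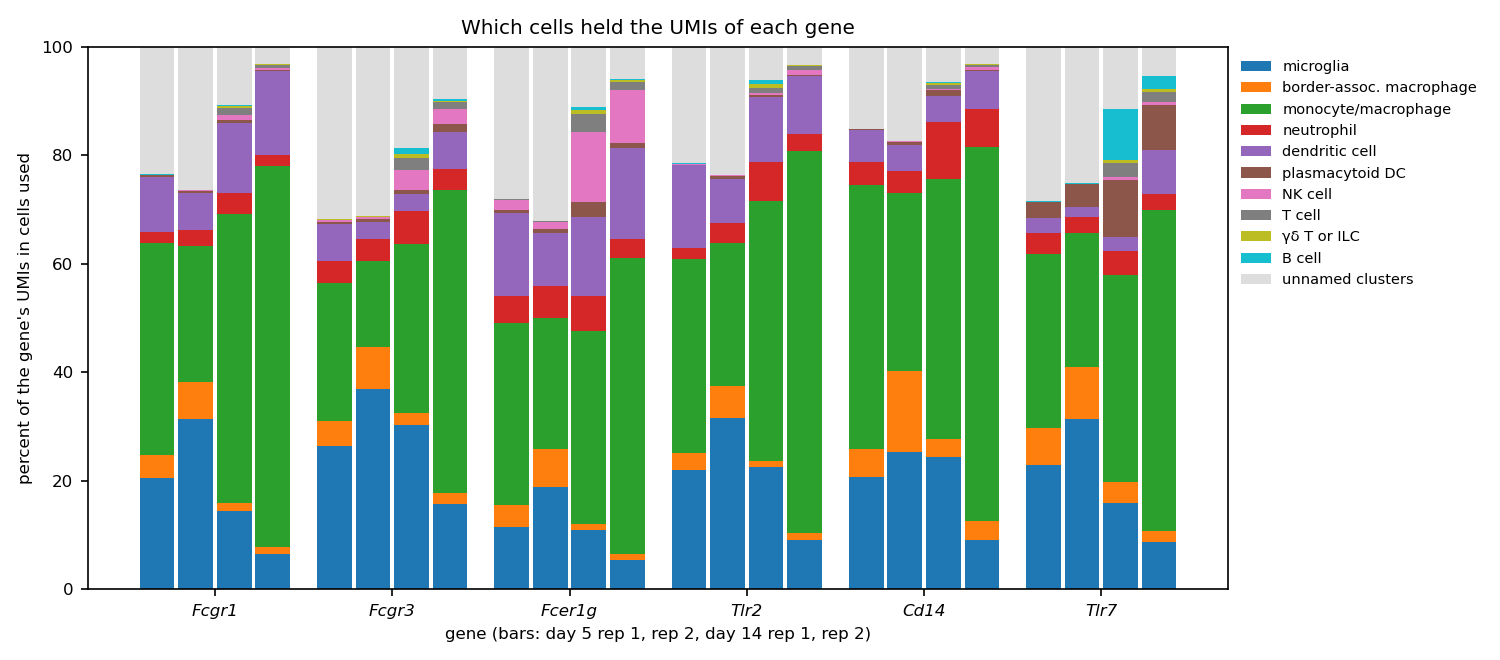
Stacked bars of the percent of each gene's UMIs held by each class, for 6 of the genes and the 4 libraries, with unnamed clusters in grey. Monocytes or macrophages (green) took up a larger part of the Fcgr1, Tlr2 and Cd14 bars of day 14 replicate 2 than of any day 5 library.

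Across 38 points (classes by library, which share libraries and depth), the genes whose log2(CPM + 10) followed each receptor most closely among 6582 genes were mostly other myeloid genes. Fcgr1 was nearest to Tlr2 (Pearson r = 0.960), Ccl9 (0.942) and Lamp2 (0.938), and Cd14 to Mtus1 (0.945), Tlr2 (0.944) and Tlr13 (0.934). Fcer1g was nearest to Tyrobp (0.9497), which encodes the other signalling adaptor of this kind, DAP12, then Sdcbp (0.854) and Itgam (0.852). Fcgr3 was nearest to Ctsd (0.9497), C1qb (0.927) and Csf1r (0.925), Fcgr4 to Ccl6 (0.942), Igsf6 (0.922) and Gdpd3 (0.911), and Fcgr2b to Ctss (0.916), Ctsc (0.913) and Asph (0.905). For Tlr4 they were Ccl2 (0.938), Cd14 (0.901) and Adgre1 (0.898), for Tlr13 Cd14 (0.934), Mtus1 (0.925) and Sat1 (0.919), and for Tlr7 the lower values of Snx5 (0.883), Tom1 (0.862) and Sh2b2 (0.857).

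Day 14 was then set against day 5 within each class that had 20 or more cells in every library. Border-associated macrophages, with 11 and 12 cells on day 14, were not tested. UMIs were summed per library and class, and edgeR's quasi-likelihood test was used after TMM scaling with Benjamini-Hochberg adjustment over all genes of the class and a threshold of 0.05. Of the 10 genes, all passed the filter on low counts in microglia and in monocytes or macrophages, 9 did so in neutrophils and in dendritic cells, 5 in plasmacytoid dendritic cells and 2 in each lymphocyte class. Log2 changes and their standard errors (SE) come from this fit and can differ slightly from ratios of the CPM values, which are unscaled.

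In monocytes or macrophages 4 of 10 receptor genes were higher on day 14 and none was lower, where 9.71% of all 9125 genes tested changed and 6.68% were higher. Fcgr1 rose most of the 4. It held 279 and 270.3 CPM on day 5 and 555 and 655 CPM on day 14. Both day 14 libraries lay far above both day 5 libraries, and the days did not overlap (log2 change 1.24, SE 0.13, edgeR adjusted p = 0.000211). Fcgr4 held 86.5 and 90.7 CPM on day 5 and 122 and 131 CPM on day 14 (log2 change 0.61, SE 0.13, adjusted p = 0.0161). Inhibitory Fcgr2b held 249.9 and 243 CPM and then 326 and 323 CPM (log2 change 0.49, SE 0.12, adjusted p = 0.0248), and Tlr2 held 255 and 247 CPM and then 323 and 327 CPM (log2 change 0.47, SE 0.12, adjusted p = 0.0323). For these 3 genes, too, both day 14 libraries lay above both day 5 libraries.

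The other 6 receptor genes did not pass the test in this class. Fcgr3 held 475, 478, 433 and 507 CPM and Fcer1g 4098, 3853, 3723 and 4124 CPM in library order, with overlapping days. Cd14 held 818 and 719 CPM on day 5 and 553 and 632 CPM on day 14, lower in both later libraries (log2 change -0.28, SE 0.13, adjusted p = 0.229). Tlr4, Tlr7 and Tlr13 had log2 changes of 0.34, 0.11 and -0.26 with adjusted p from 0.396 to 0.759. The median over all genes was near 0 after scaling and -0.10 without it, and the share of higher genes among those called was 68.8% with scaling and 54.0% without. Of the 4 calls, those of Fcgr2b (log2 change 0.39, adjusted p = 0.0502) and Tlr2 (0.37, adjusted p = 0.0625) were lost without scaling. Fcgr1 alone was called without day 5 replicate 1 and with DESeq2 or a replicate block, and 2 genes were called without day 5 replicate 2 or without day 14 replicate 2.

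Since different clusters made up the class on the 2 days, each was also tested by itself. In cluster 11 Fcgr1 held 639 and 834 CPM on day 5 and 649.6 and 726 CPM on day 14, here and below for clusters on TMM library sizes. The days overlapped and the change was -0.090 (SE 0.15, adjusted p = 0.874). Fcgr1 held 248 and 259 CPM in cluster 15 on day 5 against 483 and 367 CPM on day 14 (log2 change 0.73, SE 0.21, adjusted p = 0.136), and 123, 81.8, 67.1 and 159 CPM in cluster 14, which is led by the granule genes Elane and Mpo. On day 5 the level of Fcgr1 in cluster 11 was above that of the other 2 clusters in both libraries, and between the days cluster 11 went from 12.3% and 9.95% of the class to 82.3% and 91.4%. Of the other 3 genes called in the class, none was called in cluster 11, where the changes were 0.019 for Fcgr4, 0.21 for Fcgr2b and -0.27 for Tlr2 (adjusted p = 0.996, 0.637 and 0.510). In cluster 11 the one receptor gene that passed the test was Cd14, which was lower on day 14 (1094 and 907 CPM, then 589.7 and 671 CPM, log2 change -0.67, SE 0.14, adjusted p = 0.0385), where 1.41% of 6081 genes changed. Without day 5 replicate 1 this change was -0.52 (adjusted p = 0.236).

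Per cell, at an equal depth of 1000 UMIs, Fcgr1 was found in 23.7% and 23.0% of monocytes or macrophages on day 5 and 37.3% and 45.0% on day 14. Before thinning the shares were 63.5%, 52.9%, 75.2% and 86.4% at median depths of 4686, 3873, 4050.0 and 4471 UMIs, and 32 cells were too shallow to thin. In T cells, which should lack the gene, the thinned shares were 0%, 0%, 2.004% and 3.597%. Fcgr4 was found in 10.5%, 9.55%, 9.48% and 13.3% of thinned monocytes or macrophages, with overlapping days.

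**Figure D3:**
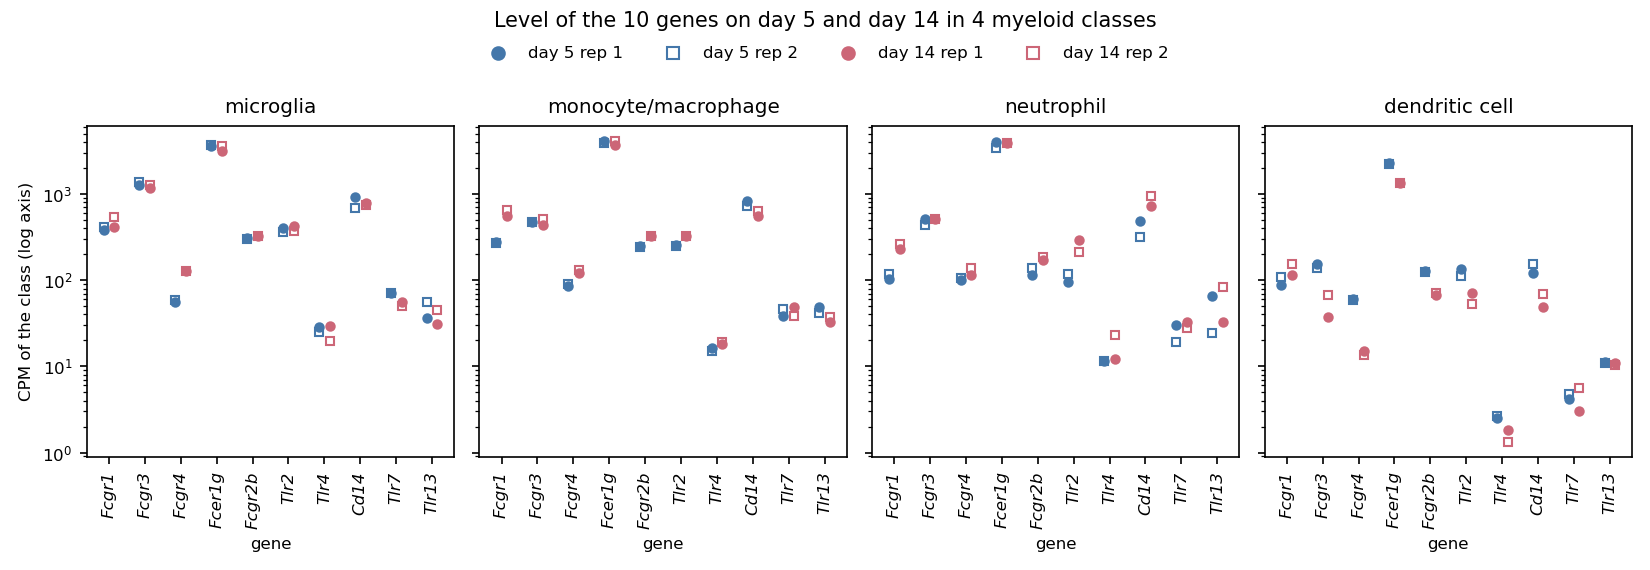
Points show the CPM of each gene (log axis) in microglia, monocytes or macrophages, neutrophils and dendritic cells, blue for day 5 and red for day 14, circles for replicate 1 and squares for replicate 2. In monocytes or macrophages the red Fcgr1 points (555 and 655 CPM) sit above the blue ones (279 and 270.3 CPM), and in dendritic cells the red Fcgr3, Fcgr4, Fcer1g, Fcgr2b, Tlr2 and Cd14 points sit below the blue ones.

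In microglia 1 of 10 receptor genes changed, where 4.57% of 6650 genes did. Fcgr4 held 56.4 and 59.5 CPM on day 5 and 129 CPM in both day 14 libraries. The days were far apart relative to the spread within a day (log2 change 1.30, SE 0.18, edgeR adjusted p = 0.000484). The ratio of Fcgr4 to Fcgr3 UMIs, which no scaling can change, stood at 0.0439 and 0.0433 in the day 5 libraries against 0.109 and 0.101 in those of day 14 (exact permutation p = 0.333, the smallest possible). At an equal depth of 1000 UMIs, 6.72% and 4.53% of microglia had a Fcgr4 UMI on day 5 and 9.57% and 16% on day 14, against at most 1.44% of T cells in any library. Before thinning the shares were 19.2%, 14.1%, 39.4% and 44.0%, at median depths of 3313, 2546, 5165 and 6534.5 UMIs.

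The other 9 receptor genes did not pass the test in microglia. Fcgr1 held 383 and 418 CPM on day 5 and 419 and 534 CPM on day 14 (log2 change 0.40, SE 0.15, adjusted p = 0.180), and without day 14 replicate 1 it passed the test (0.57, adjusted p = 0.00122). Fcgr3 held 1286, 1373, 1182 and 1285 CPM and Fcer1g 3637, 3713, 3188 and 3615 CPM, overlapping between the days. Fcgr2b, Tlr2, Tlr4, Cd14, Tlr7 and Tlr13 had log2 changes between -0.25 and 0.27 with adjusted p of 0.362 or more. Median change over all genes was near 0 after scaling and -0.16 without it, and 73.4% of called genes were higher with scaling against 43.5% without. In the same cells the 10 microglial markers summed to 20691 and 22080.4 CPM on day 5 and 14127 and 12571 CPM on day 14, and the 12 monocyte or macrophage markers to 2478 and 2385 CPM and then 2979.7 and 3325 CPM. Their part in the change of Fcgr4 was not tested. At a finer clustering (Leiden resolution 2) the makeup of the class also differed: cells led by Gpr84, Ch25h and Tnf were 36.9% and 33.1% of it on day 5 but 68.1% and 84% on day 14, and most of the rest were led by P2ry12 and Tmem119. Within the Gpr84-led cells Fcgr4 held 61.4 and 81.9 CPM and then 134 and 137 CPM (log2 change 1.01, edgeR adjusted p = 0.0134, where 3.86% of 5135 genes changed), and DESeq2 called none of the 10 receptor genes there. The P2ry12-led cells were too few to test, with 30 and 7 cells on day 14.

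A cluster that stayed unnamed, cluster 6 (led by Ighg2b, Cd5l, Igf1 and Mmp12, with 508, 579, 131 and 75 cells), had 4 of the 9 receptor genes tested called, all higher on day 14, where 4.75% of 5033 genes changed and 3.54% were higher. Its best-scoring class was microglia, but its 20 leading genes held none of the microglial markers. Fcgr1 held 208 and 233 CPM on day 5 and 459 and 347 CPM on day 14 (log2 change 0.89, SE 0.16, adjusted p = 0.00475), and Cd14 held 115 and 130.2 CPM and then 227 and 264 CPM (0.98, SE 0.17, adjusted p = 0.00393). Both were higher in each day 14 library than in each day 5 library. The cells of cluster 6 differed between the days at resolution 2: those led by Cst7, Apoc1 and Spp1 were 0.394% and 0.173% of it on day 5 and 69.5% and 62.7% on day 14, so the values set largely different cells side by side. No finer cluster held enough cells in every library to be tested. Fcgr4 changed by 1.21 (SE 0.26, adjusted p = 0.0193) and Fcgr2b by 0.69 (SE 0.15, adjusted p = 0.0214). The call of Fcgr1 was lost without day 5 replicate 1 (adjusted p = 0.0523) or day 14 replicate 1 (0.135), and that of Fcgr2b without any of day 5 replicate 1, day 5 replicate 2 or day 14 replicate 1 (adjusted p = 0.0832 to 0.260).

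In neutrophils 3 of 9 receptor genes tested were higher on day 14 and none lower, where 15.6% of 3764 genes changed and 10.6% were higher. Cd14 held 491 and 320.0 CPM on day 5 and 718 and 953 CPM on day 14. Each later library exceeded both earlier ones (log2 change 1.03, SE 0.21, edgeR adjusted p = 0.00748). Tlr2 held 94.95 and 119 CPM and then 289.6 and 211 CPM (log2 change 1.15, SE 0.26, adjusted p = 0.0131), and Fcgr1 held 102 and 117 CPM and then 233 and 266 CPM (1.11, SE 0.24, adjusted p = 0.00969). Neither gene overlapped between the days. In this class the 12 neutrophil markers summed to 119644 and 219472 CPM on day 5 and 43711 and 51345 CPM on day 14. Among them, on TMM library sizes, S100a8 held 56236, 120983, 19703 and 22221 CPM in library order and S100a9 30975, 66401, 12542 and 15331 CPM. Cxcl2, also 1 of the 12, was higher on day 14 (3996, 2335, 9595 and 13922 CPM). The microglial markers summed to 3800.5 and 3036 CPM and then 1554 and 1237 CPM. The part of all these markers in the rises was not tested. Fcgr3 (509.5, 431, 509.9 and 509 CPM) and Fcer1g (4037, 3408, 3924 and 3941 CPM) had changes of 0.083 and 0.048 and adjusted p of 0.808 and 0.890.

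Neutrophils of cluster 17, led by the granule genes Camp, Ngp and Ltf of immature cells, made up 13.7% and 41.5% of the class on day 5 and 1.11% and 0% on day 14. Within cluster 7 alone Cd14 held 528 and 364 CPM on day 5 and 840.0 and 1120.4 CPM on day 14 (log2 change 1.13, SE 0.21, adjusted p = 0.00496), and Tlr2 changed by 0.94 (SE 0.28, adjusted p = 0.0456), where 16% of 3201 genes changed. The Tlr2 call in cluster 7 was lost without day 5 replicate 1 (adjusted p = 0.214) or day 14 replicate 1 (0.173). Fcgr1 had a change of 0.73 there (SE 0.24, adjusted p = 0.0641).

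Cluster 7 itself was made up differently on the 2 days. At resolution 2, cells led by Ttr, Mmp9 and G0s2 were 77.8% and 69.1% of it on day 5 and 13.5% and 9.59% on day 14, while cells led by Cxcl2, Il1f9 and Acod1 were 22.2% and 30.9% of it and then 86.5% and 90.4%. Within the Cxcl2-led cells Cd14 held 919 and 719.7 CPM on day 5 and 719 and 1010.0 CPM on day 14. The days overlapped, and no receptor gene of the 8 tested passed edgeR's test, where 3.03% of 1912 genes did. Unadjusted, 3 of the 8 had a p under 0.05, and DESeq2 called 0. The changes there were 0.086 for Cd14 (adjusted p = 0.897), 0.71 for Tlr2 (adjusted p = 0.297) and 0.83 for Fcgr1 (adjusted p = 0.243). With classes rebuilt at resolution 2, the Ttr-led cells stayed unnamed, and neutrophils held 67, 155, 78 and 67 cells in library order. In these neutrophils Tlr2 and Fcgr1 were called and Cd14 was not (0.61, adjusted p = 0.156).

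At 1000 UMIs per cell, 26.9% and 16.1% of neutrophils had a Cd14 UMI on day 5 and 37.8% and 49.3% on day 14, against at most 1.40% of T cells, after 142 shallower day 5 cells and no day 14 cell were left out; the unthinned shares were 36.8%, 33.8%, 56.7% and 69.9%. In the class as a whole, without day 14 replicate 2 only Tlr2 stayed called (Cd14 0.82, adjusted p = 0.0821, and Fcgr1 1.02, adjusted p = 0.0637), the call of Tlr2 was lost without day 14 replicate 1 (0.95, adjusted p = 0.0690), and with DESeq2 only Cd14 stayed called (Tlr2 1.14, adjusted p = 0.0579, and Fcgr1 1.10, adjusted p = 0.0602).

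Dendritic cells went the other way. Of 9 receptor genes tested, 6 were lower on day 14 and 1 was higher, where 18.9% of 8784 genes changed, 9.13% lower and 9.77% higher. Fcgr4 held 60.7 and 59.4 CPM on day 5 and 15.1 and 13.7 CPM on day 14 (log2 change -2.03, SE 0.18, edgeR adjusted p = 1.79e-06). Fcgr3 held 155 and 139.7 CPM and then 37.3 and 66.8 CPM (-1.39, SE 0.19, adjusted p = 7.02e-05), and Fcer1g held 2281 and 2247 CPM and then 1325 and 1348 CPM (-0.72, SE 0.071, adjusted p = 3.87e-06). All 3 were lower in each day 14 library, Fcgr4 by the widest margin.

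The inhibitory Fcgr2b fell with activating Fcgr3 and Fcgr4, from 129 and 123 CPM to 66.9 and 71.2 CPM (log2 change -0.82, SE 0.13, adjusted p = 0.000256). Cd14 held 120.2 and 155 CPM and then 48.2 and 68.8 CPM (-1.14, SE 0.17, adjusted p = 0.000204), and Tlr2 133 and 111 CPM and then 70.5 and 52.8 CPM (-0.98, SE 0.15, adjusted p = 0.000289). These CPM values did not overlap between the days. At 1000 UMIs per cell the share of cells with a UMI did not overlap for Fcgr3, Fcgr4, Fcer1g, Tlr2 and Cd14, but it did for Fcgr2b (6.90%, 11.2%, 6.15% and 7.07%). Fcgr1 was the exception, with 87.9 and 108 CPM on day 5 and 116 and 153 CPM on day 14 (0.53, SE 0.15, adjusted p = 0.0227), a call lost without day 5 replicate 1 (0.38, adjusted p = 0.226), without day 14 replicate 2 (0.29, adjusted p = 0.247) or with DESeq2 (0.52, adjusted p = 0.146). With cells chosen by a per-cell marker gate its change was -0.83 (adjusted p = 0.285), and its thinned shares overlapped (7.38%, 9.02%, 8.41% and 11.4%). Tlr7 and Tlr13 had changes of 0.12 and -0.041 (adjusted p of 0.899 and 0.948).

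The makeup of the dendritic class also differed. Cluster 4 (led by Epcam, H2-Oa and H2-DMb2) held 72.0% and 62.1% of it on day 5 and 14.6% and 13.2% on day 14, while clusters 5 (Cd209d, Cd209a), 16 (Xcr1, Clec9a) and 19 (Ccr7, Ccl22) grew. Fcgr2b stood at 155 and 157 CPM on day 5 and 152 and 166 CPM on day 14 within cluster 4, against 18.7, 42.0, 62.0 and 47.6 CPM in cluster 16. Within cluster 4, 2 of 7 receptor genes tested were called, where 5.46% of 6357 genes were. These were Fcgr4 (71.5 and 69.0 CPM, then 20.5 and 15.6 CPM, log2 change -1.999, SE 0.33, adjusted p = 0.00204) and Fcer1g (2531 and 2651 CPM, then 1972 and 1873 CPM, -0.43, SE 0.094, adjusted p = 0.0138), the latter not called without day 5 replicate 2 (adjusted p = 0.141). Cd14 had a change of -0.15 in cluster 4 and -0.38 in cluster 5, against -1.14 in the class, and Tlr2 had -0.42 and -0.34, against -0.98. Fcgr1 had changes of 0.53 in cluster 4 and 0.36 in cluster 5 but -1.17 in cluster 19 (adjusted p = 0.175, 0.581 and 0.245).

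Within cluster 5 none of 7 passed edgeR's test, where 1.46% of 4589 genes did. Fcgr4 had the largest change of the 7 there, from 63.0 and 85.5 CPM to 33.6 and 26.0 CPM (-1.37, SE 0.32, adjusted p = 0.0672), and in it too the days did not overlap. Fcgr3 in cluster 4 held 178 and 173 CPM and then 111 and 122 CPM (-0.58, SE 0.17, adjusted p = 0.0690). In the dendritic class the 10 microglial markers summed to 1849 and 1888 CPM on day 5 and 539.7 and 444 CPM on day 14, and the 12 monocyte or macrophage markers to 4101 and 4539 CPM and then 5760.0 and 7041 CPM. Their part in the falls was not tested.

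**Figure D4:**
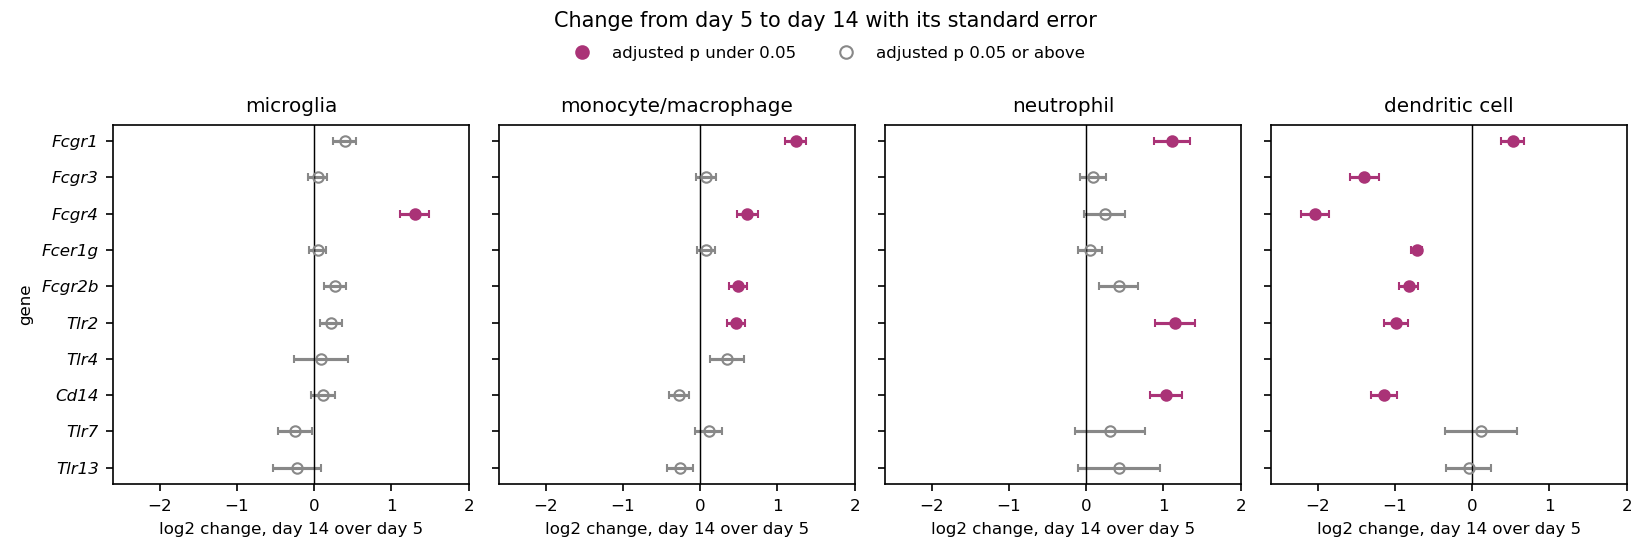
Points give the log2 change from day 5 to day 14 with its SE (bars) for each gene tested in 4 myeloid classes, filled where the adjusted p was under 0.05. Filled points lie to the right of 0 in microglia (1), monocytes or macrophages (4) and neutrophils (3), and to the left for 6 genes in dendritic cells, where Fcgr1 alone lies to the right.

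**Figure D5:**
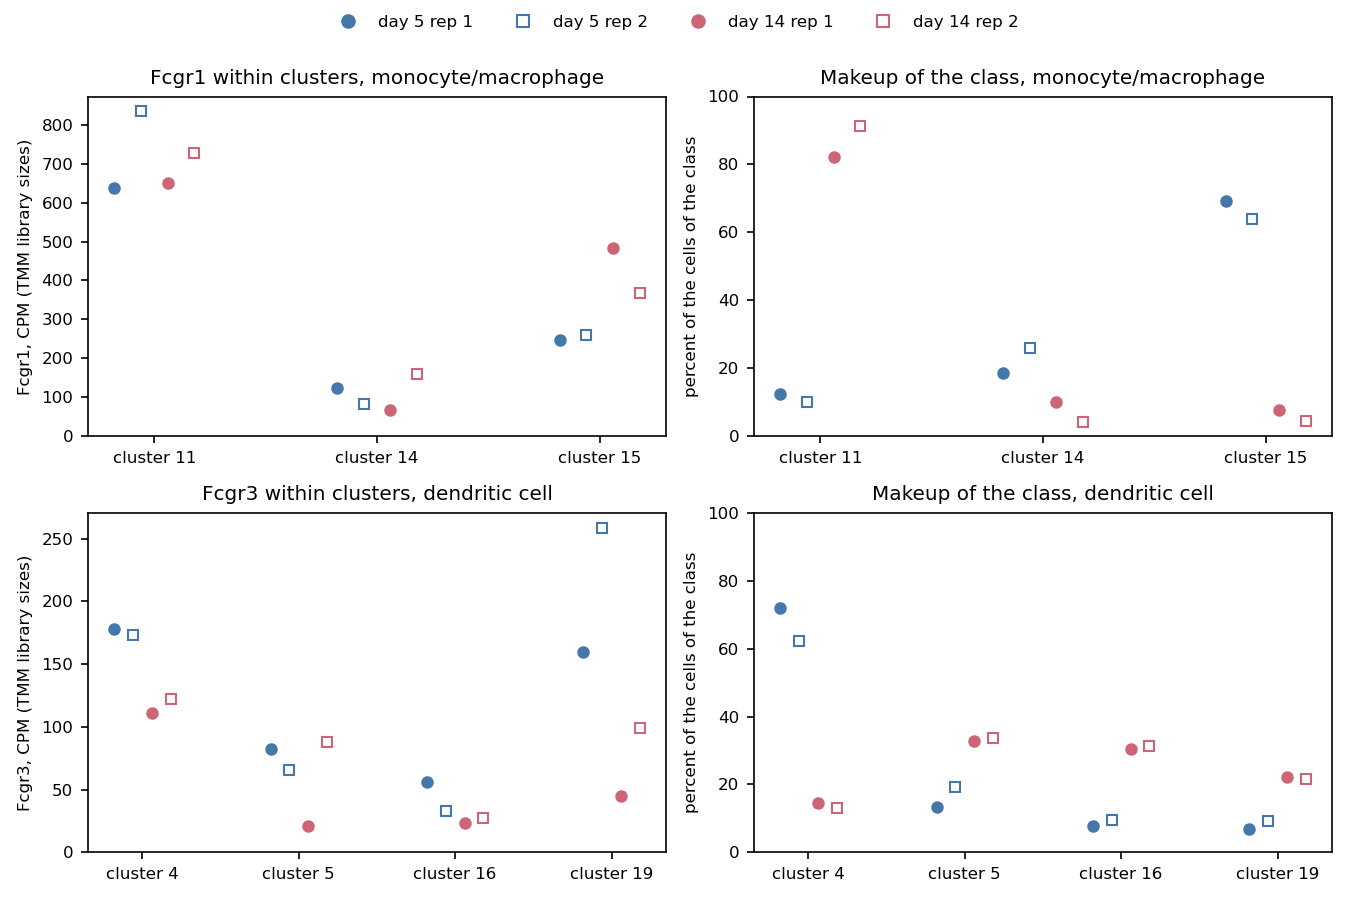
The left panels give the CPM of Fcgr1 in clusters 11, 14 and 15 and of Fcgr3 in clusters 4, 5, 16 and 19, and the right panels the percent of the cells of the class in each cluster, with 1 point per library. Fcgr1 in cluster 11 stands at 639 and 834 CPM on day 5 and at 649.6 and 726 CPM on day 14. The share of cluster 11 in the class goes from 12.3% and 9.95% to 82.3% and 91.4%.

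The difference of the day effect between classes was tested as a class by day interaction with the library as a block. Against monocytes or macrophages, dendritic cells differed for 7 of 10 receptor genes, where 7.14% of 9696 genes did. The largest differences were in Fcgr4 (-2.64, SE 0.21, edgeR adjusted p = 1.19e-07), Fcgr3 (-1.49, SE 0.16, adjusted p = 3.50e-06) and Tlr2 (-1.44, SE 0.16, adjusted p = 7.23e-06). Microglia differed from monocytes or macrophages in Fcgr1 alone (-0.83, SE 0.19, adjusted p = 0.00537, where 2.69% of 9467 genes differed), a call lost without day 5 replicate 1 (-0.92, adjusted p = 0.156) or day 5 replicate 2 (-0.75, adjusted p = 0.294). The difference in Fcgr4 between these 2 classes was 0.71 (SE 0.22, adjusted p = 0.0792). Neutrophils differed from monocytes or macrophages in Cd14 alone (1.34, SE 0.20, adjusted p = 8.11e-05, where 2.44% of 8008 genes differed).

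In the remaining classes few receptor genes could be tested. Gamma delta T or innate lymphoid cells had 1 of 2 called, where 6.12% of 2140 genes were. This was Fcgr3 (95.1 and 113 CPM on day 5, then 30.2 and 13.1 CPM on day 14, log2 change -2.02, SE 0.54, edgeR adjusted p = 0.0496), which rests on 4, 4, 16 and 3 UMIs and was not called without either day 5 library (adjusted p = 0.410 and 0.434). T cells held 58.5 and 93.3 CPM of Fcgr3 and then 34.2 and 46.9 CPM, so the levels lay near those of a class that should lack the gene. The microglial markers summed to 666 and 704 CPM in the gamma delta class on day 5 and to 253 and 272 CPM on day 14, and mast cell or basophil markers to 2535 CPM in day 5 replicate 2. Their part in the result was not tested.

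No receptor gene was called in plasmacytoid dendritic cells (5 tested, 2.27% of 2465 genes called), NK cells (2 tested, 5.85% of 5181), T cells (2 tested, 0.837% of 5139) or B cells (2 tested, 1.46% of 2327). Of these 11 edgeR tests, 2 were under 0.05 before adjustment, Cd14 in plasmacytoid dendritic cells and Fcgr2b in B cells. DESeq2 called 0 of the 11 and gave no adjusted p for 2. Tlr7 in plasmacytoid dendritic cells had a log2 change of 0.017 (SE 0.38), and the days overlapped. Fcer1g in NK cells held 3268 and 3387 CPM on day 5 and 2708 and 2487 CPM on day 14, lower in both later libraries (log2 change -0.22, SE 0.12, adjusted p = 0.449). Fcgr3 in NK cells held 84.1 and 153 CPM and then 104 and 87.1 CPM, with overlap. Fcgr2b in B cells held 75.9 and 37.9 CPM and then 98.5 and 96.8 CPM (0.90, SE 0.39, adjusted p = 0.328).

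Genes that work with these receptors were taken from 6 lists chosen by function. Among 19 Toll-like receptor partners and adaptors, Irf7, an interferon regulatory factor downstream of Tlr7, was called higher on day 14 in 7 of the 9 classes tested. In monocytes or macrophages all 19 were tested, 2 were higher (6.68% of all genes were) and 1 lower, with a median change of 0.22 against -0.0076 for all genes. Irf7 held 208 and 197 CPM on day 5 and 965 and 1263 CPM on day 14 (log2 change 2.46, SE 0.15, edgeR adjusted p = 7.21e-06), and Myd88, the shared adaptor, changed by 0.57 (SE 0.13, adjusted p = 0.0236). The scavenger receptor gene Cd36, a partner of Tlr2, was lower (-1.75, SE 0.26, adjusted p = 0.00207). In neutrophils Irf7 (2.69, SE 0.23) and the kinase gene Irak2 (2.02, SE 0.33) were the 2 higher of 10 tested, where 10.6% of all genes were. In dendritic cells 18 were tested, with Irf7 and Irf5 higher and Ly86 and Ticam2 lower, where 18.9% of all genes changed. CPM values of these list genes use TMM library sizes.

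Early response genes of Toll-like receptor signalling were counted class by class, and their changes were not compared between classes. In neutrophils 10 of 11 tested were higher and none lower, where 10.6% of all genes were higher, with a median change of 1.61 against -0.0058 for all genes. Among them Acod1 (3.19, SE 0.24, edgeR adjusted p = 2.63e-05), Ccl4 (2.36, SE 0.18, adjusted p = 2.63e-05), Ccl3 (2.24, SE 0.22, adjusted p = 9.92e-05) and Ptgs2 (2.09, SE 0.23, adjusted p = 0.000178) had the smallest adjusted p. Cxcl2 and Acod1 are among the leading genes of the finer cluster whose share of cluster 7 was larger on day 14. Within that finer cluster 4 of 11 were higher (Ccl3 1.53, Ccl4 1.77, Tnf 1.34 and Ptgs2 1.02, edgeR adjusted p = 0.0224 to 0.0489) and none lower, where 3.03% of all genes changed, and Acod1 (0.96, adjusted p = 0.0981) and Cxcl2 (0.66, adjusted p = 0.187) were not called. DESeq2 called 2 of these 11. In monocytes or macrophages 4 of 12 were higher (Il1b, Ptgs2, Acod1 and Cxcl10) and 1 was lower (Ccl3), where 9.71% of all genes changed. Il1b held 893 and 769.6 CPM on day 5 and 1891 and 2106 CPM on day 14. In dendritic cells 4 of 13 were higher and 7 lower, where 9.77% and 9.13% of all genes were. By adjusted p the first was Il12b (3.46, SE 0.39) among the higher and Cxcl2 (-1.14, SE 0.16) among the lower, while Tnf had the largest fall (-1.59, SE 0.31). NK cells had 1 of 8 higher (Cxcl10) and 2 lower (Ccl3 and Ccl4), against 5.85% of all genes changed. Gamma delta T or innate lymphoid cells had 4 of 7 lower (Ccl3, Ccl4, Nfkbia and Nfkbiz, 6.12% changed). Ccl4 held 227, 4040, 107 and 73.0 CPM in library order, and Ccl3 142, 959, 67.2 and 31.3 CPM. Day 5 replicate 2, with 20 cells of this class, was also the library with the mast cell or basophil markers given above. Their part in these falls was not tested. Nfkbia held 3426 and 5067 CPM on day 5 and 1737 and 1852 CPM on day 14. Microglia had 2 of 10 higher (Cxcl10 and Ptgs2, 4.57% changed). Within the Gpr84-led microglia edgeR called 0 of the 10 (3 at an unadjusted p under 0.05) and DESeq2 also 0, with changes of 0.25 for Cxcl10 (adjusted p = 0.566) and 0.98 for Ptgs2 (adjusted p = 0.273).

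Among 17 Fc receptor signalling genes, monocytes or macrophages had 1 of 15 higher (Pik3cd, 0.75, SE 0.16) and none lower, a share near the 6.68% of all genes that were higher. Dendritic cells had 1 of 16 higher, the ubiquitin ligase gene Cblb (1.10, SE 0.20), and 3 lower, Tyrobp (-0.57, SE 0.070), Lat2 (-0.55, SE 0.13) and Ptpn6 (-0.35, SE 0.099), also near the share of all genes, 18.9%. NK cells had 1 of 12 lower (5.85% of all genes changed) and T cells 1 of 10 lower (0.837%). Gamma delta T or innate lymphoid cells had 1 of 6 higher (6.12%). None of the tested genes of this list passed in microglia, neutrophils, plasmacytoid dendritic or B cells. Of the other Fc receptors, all 3 tested in monocytes or macrophages were lower on day 14, where 9.71% of all genes changed. Beside Fcrls these were Fcgrt (-0.75, SE 0.17, edgeR adjusted p = 0.0204) and Fcrl1 (-1.21, SE 0.30, adjusted p = 0.0305). In neutrophils (2 tested), dendritic cells (4), plasmacytoid dendritic cells (3) and NK cells (1), Fcrls was the only call. There 15.6%, 18.9%, 2.27% and 5.85% of all genes changed. Fcrls, a gene known from microglia, was lower on day 14 in monocytes or macrophages (-1.83), neutrophils (-1.78), dendritic cells (-2.27), plasmacytoid dendritic cells (-2.65) and NK cells (-1.74). The summed microglial markers were also lower on day 14 in these classes, from 2453 and 2839 CPM to 1181 and 1124 CPM in monocytes or macrophages and from 554 and 535 CPM to 224 and 123 CPM in NK cells, and their part in the falls of Fcrls was not tested. Of the other Toll-like receptors, Tlr3 was higher in monocytes or macrophages (1.84, SE 0.36) and Tlr12 in dendritic cells (1.91, SE 0.43). Each was the only call among 3 tested in its class, where 9.71% and 18.9% of all genes changed. Both genes were at low levels. Tlr3 held 2.67 and 3.85 CPM on day 5 and 11.98 and 11.6 CPM on day 14. Tlr12 held 2.48 and 2.62 CPM and then 10.38 and 9.26 CPM. Of the 9 ligand proteins of injured tissue, 6 were tested in microglia and in dendritic cells, with 1 higher and 1 lower in each (4.57% and 18.9% of all genes changed). The higher genes were Fn1 in microglia (1.93, SE 0.36) and Hspa1a in dendritic cells (0.99, SE 0.24). Lower were 2 of 7 in monocytes or macrophages (9.71% changed), 2 of 6 in neutrophils (15.6%), 1 of 5 in NK cells (5.85%) and 1 of 5 in T cells (0.837%), and none was higher there. S100a8 was lower in neutrophils (-2.08, SE 0.28), monocytes or macrophages (-2.70, SE 0.59), microglia (-1.96, SE 0.31) and NK cells (-1.70, SE 0.31). S100a8 is itself a neutrophil marker, and in monocytes or macrophages it held 118 and 601 CPM on day 5 and 50.8 and 58.3 CPM on day 14. The 12 neutrophil markers summed to 5508 and 14432 CPM over all cells of the day 5 libraries and to 1603 and 1443 CPM over those of day 14. Within monocytes or macrophages they summed to 775, 1409, 379.7 and 487 CPM, within microglia to 536, 649, 520.0 and 239 CPM and within NK cells to 469.7, 329, 91.9 and 233 CPM in library order, and their part in the falls of S100a8 was not tested.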

How the data were processed

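The 10 genes, the gene lists and the marker lists were chosen with earlier results of these data known. The values the authors deposited are unnormalized UMI counts for each gene and each barcode called as a cell. Cell Ranger 3.0.1, Seurat 2.3.4 and build GRCm38 (mm10) are named per the submitters' processing notes, and the annotation release is not given in the sources used here. Per the file headers, the day 5 tables were written by software version 3.0.1, whereas the day 14 header is empty, so any upstream difference runs along the comparison of days.

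Barcodes under 200 genes (3) or over 10% mitochondrial UMIs (81) were left out. Scrublet called only 9 barcodes, so 641 mixed cells were also left out: lymphocytes with over 2% of UMIs from 7 phagocyte genes, and other cells with 3 or more UMIs of T or B cell genes. Clustering (scanpy 1.11.5, 2000 variable genes without the 10 receptor genes, 30 components, 20 neighbours, Leiden resolution 1) used no batch correction. A cluster took the class whose markers scored highest if 3 or more of them reached 50 CPM, at least 1 was among its 20 leading genes, and at most 50% of its cells had a Scrublet score over 0.1. These limits were set after the data were seen.

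UMIs were summed per library and class and tested with edgeR 4.0.16 (quasi-likelihood, TMM, filterByExpr, day as the only term, two-sided) in R 4.3.3, and the test was checked on simulated data. DESeq2 1.42.0 was an alternative. All 10 receptor genes are named in every class, and of each list up to 4 genes per class with the smallest adjusted p. Total UMIs per library were 10730791, 13610119, 9288054 and 10759904. Single-library counts of 3 UMIs or fewer are too few to rank classes. Alternatives covered normalization, filters, doublets, clustering, a per-cell marker gate, blocks, one finer cluster (Leiden resolution 2) within microglia and neutrophils, and leaving out each library.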

Additional observations from a re-analysis of the deposited data

Results flagged for a closer look

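The change from day 5 to day 14 differed between classes, by an edgeR class by day interaction with the library as a block, for 9 pairs of gene and class. Against monocytes or macrophages, the change in dendritic cells was lower on the log2 scale for Fcgr4 (-2.64), Fcgr3 (-1.49), Tlr2 (-1.44), Fcgr2b (-1.29), Cd14 (-0.87), Fcer1g (-0.78) and Fcgr1 (-0.70). Fcer1g had an edgeR adjusted p of 2.33e-06 and Fcgr2b of 4.25e-06, and the adjusted p of Cd14 was 0.00227 and that of Fcgr1 0.00298. The last 2 were not called without day 5 replicate 2 (Cd14 -0.59, adjusted p = 0.0807, and Fcgr1 -0.53, adjusted p = 0.113). The change of Fcgr1 was smaller in microglia than in monocytes or macrophages (-0.83), and that of Cd14 was larger in neutrophils than in monocytes or macrophages (1.34). The 3 tests share the monocyte or macrophage class, whose leading cluster differed between the days, and in one finer cluster of neutrophils the change of Cd14 was 0.086 (adjusted p = 0.897). No library of a group could be tested for standing apart, since each day has 2.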

How the results depend on the processing

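Monocytes or macrophages (4 called receptor genes in the report, all higher) had 1 with DESeq2, 2 without scaling or with Scrublet calls alone, 2 with a per-cell marker gate (Fcgr1 higher and Cd14 lower), and 1 in the one cluster with the most cells in its smallest library (here the main cluster alone), which was Cd14, lower, so none of the 4 held there. With the replicate number as a block (replicate block) it was 1, Fcgr1. Deviations of the same replicate number had a correlation of -0.193 to 0.0487 by class. With 2 libraries per day this cannot settle whether the numbers pair the samples, and the labels do not say. Crossing the numbers between the days, an alternative added after seeing the data, gave 5. Leaving out 1 library gave 1 to 4 calls there, 1 to 3 in neutrophils, 1 to 2 in microglia, 0 to 1 in plasmacytoid dendritic cells and 0 in gamma delta T or innate lymphoid cells. Neutrophils had 1 call with DESeq2 and 0 in one finer cluster only, an alternative added after seeing the data (3 in the report). Dendritic cells had 3 with the marker gate and 0 in the main cluster alone (7 in the report), and microglia 2 with the gate. Gamma delta T or innate lymphoid cells had 0 with RLE size factors or without a filter on low counts and 2 with Scrublet calls alone, where B cells had 3. Of the 16 called changes, 15 stayed called under RLE size factors, 14 of 15 with Leiden resolution 2, 15 of 15 without Scrublet scores over 0.1 (added after seeing the data), 9 of 15 with DESeq2, 7 of 12 with the marker gate (1 turned its sign), 4 of 16 in the main cluster alone (2 turned) and 1 of 4 in one finer cluster only. Microglia formed a single cluster, as did the gamma delta class, so for both the main cluster alone held the same cells as the class. Their calls (Fcgr4 and Fcgr3) therefore stayed by construction and were not checked by this setting. The other calls that stayed in the main cluster alone were Cd14 and Tlr2 in neutrophils. The cause of the calls lost or turned was not tested.

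In one finer cluster only, signs turned for Fcer1g (-0.12), Tlr7 (0.16), Tlr2 (-0.10) and Cd14 (-0.021) in microglia and for Fcgr4 (-0.96), Fcgr3 (-0.38), Fcer1g (-0.18) and Tlr13 (-0.19) in neutrophils. Others that turned were, in the main cluster alone, Fcgr1 (-0.090), Fcgr3 (-0.072), Fcer1g (-0.13), Tlr2 (-0.27), Tlr7 (-0.21) and Tlr13 (0.45) in monocytes or macrophages and Fcgr3 (-0.14) in neutrophils. Without scaling they were Fcgr3 (-0.11), Fcer1g (-0.12), Tlr4 (-0.074) and Cd14 (-0.045) in microglia, Fcgr3 (-0.016) and Fcer1g (-0.020) in monocytes or macrophages and Tlr7 (-0.052) in plasmacytoid dendritic cells. With the marker gate they were Tlr7 (0.26) in microglia, Fcgr3 (-0.059) and Fcer1g (-0.034) in monocytes or macrophages, Fcgr2b (-1.80) in neutrophils, Fcgr1 (-0.83) in dendritic cells, and Fcgr3 (0.95) and Fcer1g (0.090) in plasmacytoid dendritic cells. At Leiden resolution 2 they were Fcgr4 (-0.32) and Fcer1g (-0.069) in neutrophils, and with the UMI floor of the highest library Fcer1g (-0.019) there. Without high Scrublet scores they were Fcgr3 (-0.019) in microglia, Tlr13 (0.027) in dendritic cells, and Fcgr3 (1.16), Fcer1g (0.11) and Tlr7 (-0.18) in plasmacytoid dendritic cells, where Tlr7 was also -0.11 with Scrublet calls alone and -0.0074 with a mitochondrial limit of 5%.

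Leaving out 1 library turned the sign, among uncalled changes, of Fcgr3 (-0.0044 to 0.11), Fcer1g (-0.039 to 0.14), Tlr13 (-0.46 to 0.15), Tlr4 (-0.26 to 0.31) and Cd14 (-0.10 to 0.34) in microglia, and of Fcgr3 (-0.058 to 0.22), Fcer1g (-0.016 to 0.18) and Tlr7 (-0.0060 to 0.29) in monocytes or macrophages. It did so for Tlr13 in neutrophils (-0.35 to 1.02), for Fcgr3 (-1.60 to 0.66), Fcer1g (-0.13 to 0.017) and Tlr7 (-0.30 to 0.44) in plasmacytoid dendritic cells and for Fcgr3 in NK cells (-0.56 to 0.33). The log2 ratio of Fcgr2b to activating genes, day 14 minus day 5, ran from -0.019 to 0.16 in microglia, -0.15 to 0.22 in border-associated macrophages, -0.23 to 0.0013 in monocytes or macrophages and -0.073 to 0.33 in neutrophils. The thinned share of monocytes or macrophages with a Fcgr4 UMI differed by -0.53 to 3.31 percentage points. The interaction of Fcgr1 ran from -0.93 to -0.75 for microglia and from -0.89 to -0.53 for dendritic cells, and that of Cd14 for dendritic cells from -1.17 to -0.59. Tlr4, Tlr7 and Tlr13 gave few UMIs per library and class, so small changes in them were not detectable at this depth.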

Other observations

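Outside the named classes, cluster 8 (led by Mcpt8, Birc5 and Cpa3) stayed unnamed. Its cells had 5.19, 4.89, 5.11 and 4.05 Fcer1g UMIs per UMI of Fcgr1, Fcgr3 and Fcgr4 in library order. Mcpt8 and Cpa3 had UMIs in day 5 replicate 2 alone, so these markers describe the cluster in that library only. The microglia-like cluster 2, unnamed because 74.2% of its cells had a Scrublet score over 0.1, had 3.92, 3.33, 3.75 and 2.51, against 1.84 to 2.11 in the microglial class.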
